A study of Drosophila melanogaster with 9 samples.

Results

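The untreated S2 cells of this study are 3 of its 9 samples, and every value below comes from these 3 arrays. S2 is a macrophage-like cell line of Drosophila melanogaster that was established from embryos, and the stock came from the Drosophila Genomics Resource Center. The 3 untreated samples received no double-stranded RNA (dsRNA) and were chosen by their titles. The other 6 samples, 3 treated with dsRNA against NELF for 72 h and 3 with dsRNA against LacZ for 72 h, are not compared here. All samples were grown in medium with 10% serum, and 1 µg of total RNA per sample was amplified, labelled and put on its own Affymetrix Drosophila Genome 2.0 array. Nothing in the labels says that the 3 untreated samples came from separate cultures, so the SD between them may be technical.

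The blood cells of Drosophila, the hemocytes, are of a few kinds. Plasmatocytes are macrophages: they engulf dead cells and microbes, secrete much of the basement membrane and release antimicrobial peptides. Crystal cells carry the prophenoloxidases of the melanization response, and lamellocytes, which appear mainly after parasitism, encapsulate large intruders. The GATA factor srp and its cofactor ush act early in this lineage, gcm and gcm2 in embryonic plasmatocytes, lz in crystal cells and kn in the lymph gland and lamellocyte response.

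The deposited unit is a log2 intensity per probe set, a group of short probes for a transcript. Values of the array's 95 control probe sets served as the yardstick. Their 95th percentile on the untreated arrays was 3.67, called the control limit here, and their median was 1.94. Of 285 possible control values 181 were present, and the empty ones were left out of both figures. A single control probe set was bright, with 13.45, 13.42 and 13.51 on arrays 1, 2 and 3, and the highest value of any other control was 5.43. A gene counts as above where all 3 arrays exceed 3.67, and as below where none does, an empty value being counted as not above. Probes differ in how well they bind, so an order of genes is an order of array signal and not of transcript amount. In RNA from whole cultures, few cells with a transcript and little transcript per cell cannot be told apart.

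Of 11573 named genes, 5998 (51.8%) lay above the control limit on all 3 arrays. That share is the one to set beside every list count that follows. Another 4531 genes (39.2%) exceeded it on no array, of which 590 were empty on all 3, and 1044 genes (9.02%) exceeded it on 1 or 2 arrays. Gene means fell into a low and a high group, with a trough between them: 457 genes lay between 2.25 and 2.5, 79 between 4.5 and 4.75, and 375 between 7.75 and 8. The control limit sat on the upper slope of the low group. Genes above the limit had a median of 8.0, and their middle 50% ran from 6.83 to 9.15.

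**Figure D1:**
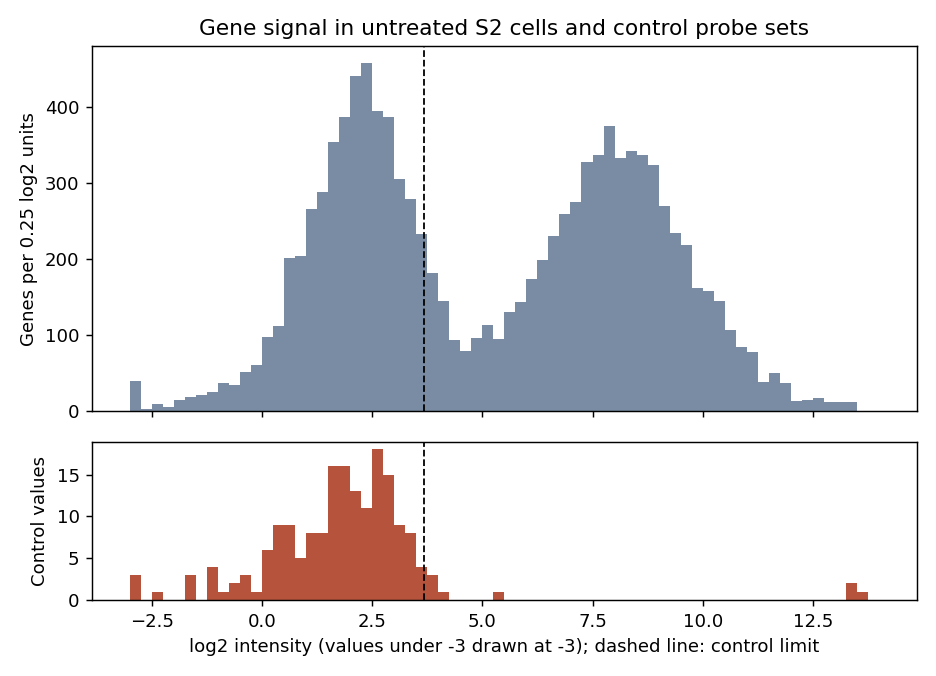
Upper panel: number of named genes per 0.25 log2 units of mean log2 intensity over the untreated arrays that measured them. Lower panel: the control values on the same scale; the dashed line in both is the control limit of 3.67. The genes form a low and a high group with the trough near 4.5 to 4.75, and most control values fall under the low group, with 1 control probe set at the far right.

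The 300 brightest genes, the upper 5% of those above the limit, had means from 10.94 to 13.48. Translation dominated the very top: 17 of the 20 brightest genes encode proteins of the cytosolic ribosome. RpL41, a small protein of the large subunit, read 13.48, 13.46 and 13.51 on arrays 1, 2 and 3. RpLP1, an acidic stalk protein, read 13.40, 13.46 and 13.56, and RpS20 read 13.43, 13.46 and 13.48. These values reached the level of the bright control probe set, and 6 genes had means within 0.1 of it or over it. The remaining 3 of the 20 were tsr, the actin-severing protein cofilin, with 13.50, 13.45 and 13.50, eEF5, a factor that helps ribosomes through difficult peptide bonds, with 13.15, 13.12 and 13.10, and CG5953, known by its number alone, with 13.17, 13.17 and 13.19. The second probe set of CG5953 averaged 7.82, so its place rests on 1 set.

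Outside ribosome, translation factor and cytoskeleton genes, the brightest 20 mixed general housekeeping genes with some from the lysosome, matrix and plasmatocyte lists used here. Whether any of them is particular to hemocytes was not tested. Housekeeping members included Hsc70-4, the main constitutive chaperone of the Hsp70 family (12.73, 12.68 and 12.73), 14-3-3epsilon, a phosphoprotein-binding adaptor (12.68, 12.70 and 12.74), and Fkbp12, a prolyl isomerase (12.84, 12.89 and 12.90). The ATP synthase subunit ATPsynbeta, the respiratory chain protein ND-MLRQ, the cyclophilin Cyp1, the ribosome-bound scaffold Rack1 and the cytoplasmic myosin light chain Mlc-c were in the same set. Lysosome and secreted products stood beside them. CtsL1, a lysosomal cysteine protease, read 12.67, 12.59 and 12.60. Lamp1, a lysosomal membrane protein, read 12.60, 12.49 and 12.58. SPARC, a collagen-binding matrix protein, read 12.48, 12.54 and 12.53. The neuropeptide-like precursor Nplp2 and the ferritin heavy chain Fer1HCH, both described below with the plasmatocyte genes, belonged to the same 20.

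Less familiar names were also there. Arc1, which descends from a retrotransposon Gag protein and forms capsids, read 12.57, 12.71 and 12.67, and its second probe set averaged 11.12. The zinc finger gene jim read 12.76, 12.78 and 12.76 on 1 probe set, while its other sets averaged 7.72 and 6.87. Its place among the brightest therefore rests on a single probe set. blanks, which encodes a dsRNA-binding protein, read 12.51, 12.53 and 12.48. CG1943, CG32276 and CG15098, with means of 12.74, 12.67 and 12.64, completed the 20.

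Plasmatocyte and macrophage genes were split. Of 19 genes on this list, 11 were above the limit on all arrays (57.9%, against 51.8% of all named genes), 4 on 1 or 2 arrays and 4 on none. The 11 included both ferritin chains, the growth factor receptor Pvr and the receptors for dead cells, and the genes that did not pass included several of the usual plasmatocyte markers. Nplp2 read 12.61, 12.44 and 12.54 on arrays 1, 2 and 3. Fer1HCH, which with Fer2LCH forms secreted ferritin, read 12.44, 12.46 and 12.52, and Fer2LCH read 8.82, 8.68 and 8.77. vir-1, a gene first known as induced by virus, read 10.63, 10.84 and 10.60. All 3 arrays of each of these genes lay at least 5 log2 units above the control limit.

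Receptors that plasmatocytes use were at bright to dim levels. Pvr, the receptor for PDGF/VEGF-like factors on which hemocyte survival depends, read 10.17, 10.13 and 10.02. crq, a CD36-family receptor for apoptotic cells, read 8.92, 9.05 and 9.06, and drpr, the engulfment receptor Draper, read 8.79, 8.25 and 8.90. Both sat in the middle 50% of the genes above the limit. eater, an EGF-repeat receptor for bacteria, read 7.27, 6.29 and 6.86, and its relative NimC4, which binds apoptotic cells, read 6.97, 6.75 and 6.50. Both fell in the lower 25% of the genes above the limit, with all 3 arrays over 6. The matrix enzyme Pxn read 8.28, 8.25 and 8.02, on a probe set whose partner averaged 2.30, and the matrix protein Ppn read 6.44, 6.78 and 6.74.

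Hml, the clotting protein hemolectin and a widely used plasmatocyte marker, read 4.08, 3.03 and 4.47, which is above the limit on 2 arrays. He, the surface glycoprotein hemese carried by hemocytes, read 4.49, 3.06 and 3.41, above it on 1 array. Sr-CI, a scavenger receptor, read 3.41, 3.83 and 2.27, and NimC2 read 3.35 and 3.85 on arrays 1 and 3 with no value on array 2. None of these 4 genes was above the limit on all arrays, and Hml, He and Sr-CI each varied by over 1 log2 unit between arrays. NimC1, the phagocytic receptor detected by the P1 antibody, read 1.03, 3.44 and 0.53, below the limit throughout. NimB4 read 2.05, 3.35 and 3.07, NimB5 read 1.93, 3.42 and -0.91, and Sr-CII had a single value, 2.14. Sr-CIII was not analysed here.

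Among 12 transcription regulators of hemocytes, 6 were well above the limit and 6 below it on every array, with no intermediate case at this limit. The share above, 50%, was near the 51.8% of all named genes. srp, the GATA factor that specifies the lineage, read 9.69, 9.71 and 9.83. ush, the FOG-type cofactor of GATA factors, read 9.57, 9.50 and 9.48, and pnr, another GATA factor, read 9.97, 9.93 and 10.01. These 3, with Stat92E, the transcription factor of the JAK/STAT pathway (10.06, 10.02 and 10.09), lay in the upper 25% of the genes above the limit. The zinc finger homeodomain factor zfh1 read 9.02, 9.12 and 9.01, and the forkhead factor jumu read 8.75, 8.77 and 8.63. On the other side, gcm had values of 1.44 and -0.85 on arrays 1 and 3, and gcm2 a single value of 0.71. lz, the Runx factor of crystal cells, read 2.30, 2.64 and -1.03, and kn, an EBF factor, read 1.16 and 2.37 on arrays 1 and 3. Antp, the homeotic gene of the lymph gland niche, read 3.14, 2.59 and 3.51, and peb, the zinc finger gene hindsight, had 1 value, 0.94.

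Of the 4 crystal cell genes measured, PPO2 alone was above the limit on all arrays, with 4.59, 5.42 and 5.08. PPO1, the other crystal cell prophenoloxidase, read 0.48 and 3.94 on arrays 2 and 3, and lz and peb were below, as given above. PPO2 was under the highest control value outside the bright set, 5.43.

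Lamellocyte genes were above the limit in 7 of 8 cases, but the list mixes widely used genes with restricted ones. mys, the beta integrin subunit of many tissues, read 11.38, 11.36 and 11.38, the kinase msn 9.55, 9.48 and 9.62, and the actin crosslinker cher 9.42, 9.23 and 9.32. The more restricted members were dimmer. PPO3, the lamellocyte prophenoloxidase, read 6.37, 6.34 and 6.21. The integrin subunits Itgbn and ItgaPS4 averaged 5.82 ± 0.50 and 5.35 ± 0.39 (SD, n = 3), and the trehalase gene Treh averaged 6.49 ± 0.21 (SD, n = 3). atilla, whose product is the L1 lamellocyte antigen, read 3.06 and -2.09 on arrays 1 and 2 and was below the limit.

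Of 7 genes of lymph gland progenitors, 4 were above (57.1%, against 51.8% of all named genes). The thioester protein Tep4 read 10.36, 10.41 and 10.37, and dome, the receptor of the JAK/STAT pathway, read 7.93, 7.95 and 8.06. The glypican dlp read 5.57, 5.39 and 5.39, and the Hedgehog receptor ptc averaged 5.10 ± 0.11 (SD, n = 3). The E-cadherin gene shg (3.40 and 3.42 on arrays 2 and 3), the ligand hh (0.85 on array 1) and kn were below. Taking the 5 hemocyte lists as 47 different genes, 29 (61.7%) were above, 5 were above on 1 or 2 arrays and 13 (27.7%) were below, against 51.8%, 9.02% and 39.2% of all named genes.

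**Figure D2:**
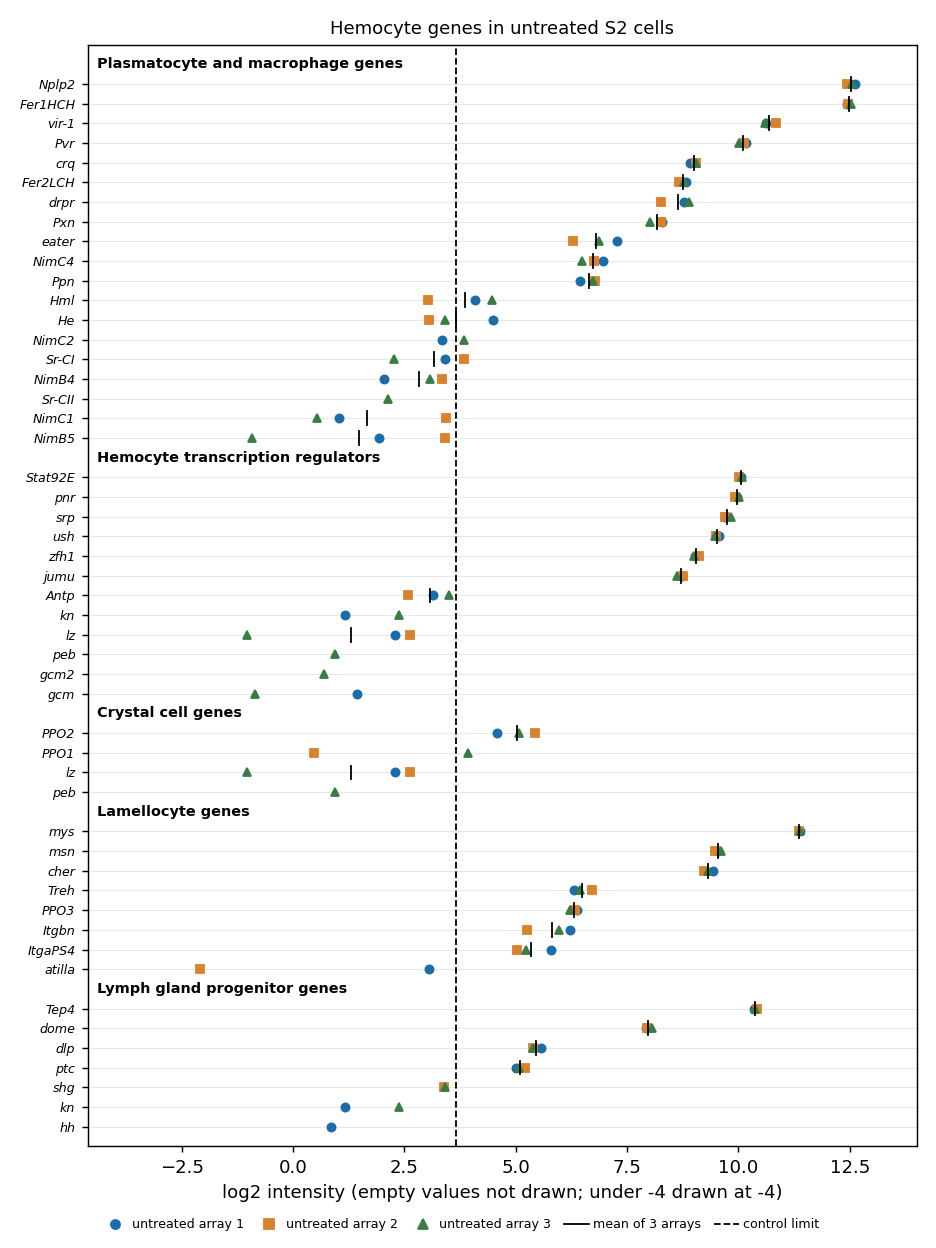
Each point is the log2 intensity of a gene on 1 of the 3 untreated arrays, the vertical bar is the mean where all 3 measured it, and the dashed line is the control limit of 3.67; genes are ordered by mean within each list. The 6 regulators from Stat92E to jumu lie between 8.63 and 10.09 with closely grouped arrays, while Hml, He, NimC2 and Sr-CI straddle the limit.

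Matrix and basement membrane genes, which macrophages secrete in the embryo, were above the limit in 13 of 15 cases (86.7%, against 51.8% of all named genes). Laminin chains were strong: LanA averaged 11.97 ± 0.04 (SD, n = 3), LanB2 read 11.20, 11.11 and 11.32, and LanB1 read 9.64, 9.44 and 9.85. The sulfated glycoprotein glutactin (Glt), the integrin ligand Tig and the perlecan gene trol averaged 10.41, 8.58 and 8.35. For trol that holds for 1 of 8 probe sets, since the others averaged from 4.94 down to 0.40. The 2 chains of collagen IV were near the limit. vkg read 4.10, 5.51 and 4.46 and Col4a1 read 4.09, 5.41 and 4.45, so that both chains were highest on array 2. The metalloproteinase Mmp2 read 7.08, 6.98 and 6.90, on a probe set whose partner averaged 2.44. The linker protein Ndg was above on 1 array, with 2.74, 3.45 and 3.71, and the metalloproteinase inhibitor Timp was below, with 2.93 and 2.75 on arrays 2 and 3.

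The lysosome list had 29 of 41 genes above (70.7%, against 51.8% of all named genes), 21 of them in the upper 25%. Beside CtsL1 and Lamp1, subunits of the proton pump that acidifies the lysosome were bright: Vha26 averaged 12.39 ± 0.08, Vha16-1 12.26 ± 0.01 and Vha13 11.76 ± 0.03 (SD, n = 3 each). The 12 genes that were not above all encode variants of proton pump subunits. Among them Vha100-3 averaged 2.56, VhaAC45RP 2.93 and VhaAC39-2 1.94, while Vha100-2, VhaAC45 and VhaAC39-1 averaged 9.89, 11.03 and 10.77.

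Antimicrobial peptide genes, the effectors of the humoral response, were measured for 12 of 22 listed genes, and 6 of the 12 were above, a share near the 51.8% of all named genes. Mtk, which encodes metchnikowin, read 9.23, 9.16 and 9.29. AttD, an attacin, read 8.27, 8.37 and 8.45, and DptB, a diptericin, read 7.68, 7.72 and 7.65. CecB, a cecropin, read 7.66, 7.36 and 7.64. All 4 exceeded the limit by over 3 log2 units, and Drs, the antifungal drosomycin, and its relative Drsl4 followed with means of 6.65 and 6.18. The defensin gene Def was below, with 0.95, 3.66 and 1.12, as were the drosomycin-like genes Drsl1, Drsl2, Drsl3, Drsl5 and Drsl6. The 10 listed genes not analysed here include the other cecropins and attacins.

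The Imd pathway, which signals from bacterial peptidoglycan to the NF-kB factor Relish, was nearly complete. Of its 12 genes, 11 were above (91.7%, against 51.8% of all named genes). Rel, which encodes Relish, read 9.57, 9.53 and 9.57, its IKK gamma partner key read 10.22, 10.21 and 10.22, and the adaptor gene imd averaged 7.08 ± 0.12 (SD, n = 3). Diap2, Fadd, Dredd, Tab2 and IKKbeta, the further steps of the cascade, averaged 9.92, 8.52, 8.12, 8.08 and 6.79, and the inhibitors pirk and casp averaged 8.73 and 8.65. PGRP-LE, an intracellular peptidoglycan receptor, read 5.47, 4.31 and 5.22. PGRP-LB, an amidase that degrades peptidoglycan, was the member below, with 2.76, 3.59 and 2.67. PGRP-LC, the surface receptor of the pathway, was not analysed here.

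The Toll pathway had 11 of 13 genes above (84.6%, against 51.8% of all named genes). The ligand gene spz was in the brightest 5%, with 11.17, 11.30 and 11.19. The receptor Tl read 6.96, 6.86 and 7.08 on a probe set whose partner averaged 2.04. The kinase adaptor tub, the inhibitor cact, the NF-kB factor dl and the kinase pll averaged 8.94, 8.83, 8.60 and 7.82. The adaptors Myd88 and wek averaged 6.80 and 6.75, and Dif, the other NF-kB factor of the pathway, averaged 6.25. Spn27A, a serpin that restrains the cascade, averaged 9.44. The proteases upstream of the ligand were not above on all arrays: SPE read 3.55, 4.32 and 4.32, above on 2 arrays, and psh read 2.83, 3.02 and 0.56. Of 10 recognition genes, 7 were above, from the immunoglobulin receptor Dscam1 (10.45, 10.59 and 10.63, on a probe set whose partner had a single value of 0.02) to PGRP-LE, given above, with Tep4, PGRP-LF, GNBP2, GNBP3 and PGRP-SC2 (5.56, 5.86 and 5.83) between them. The scavenger receptor gene emp and the thioester protein gene Tep3 were below. Over the 4 immune lists, 33 of 45 different genes were above (73.3%, against 51.8% of all named genes).

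**Figure D3:**
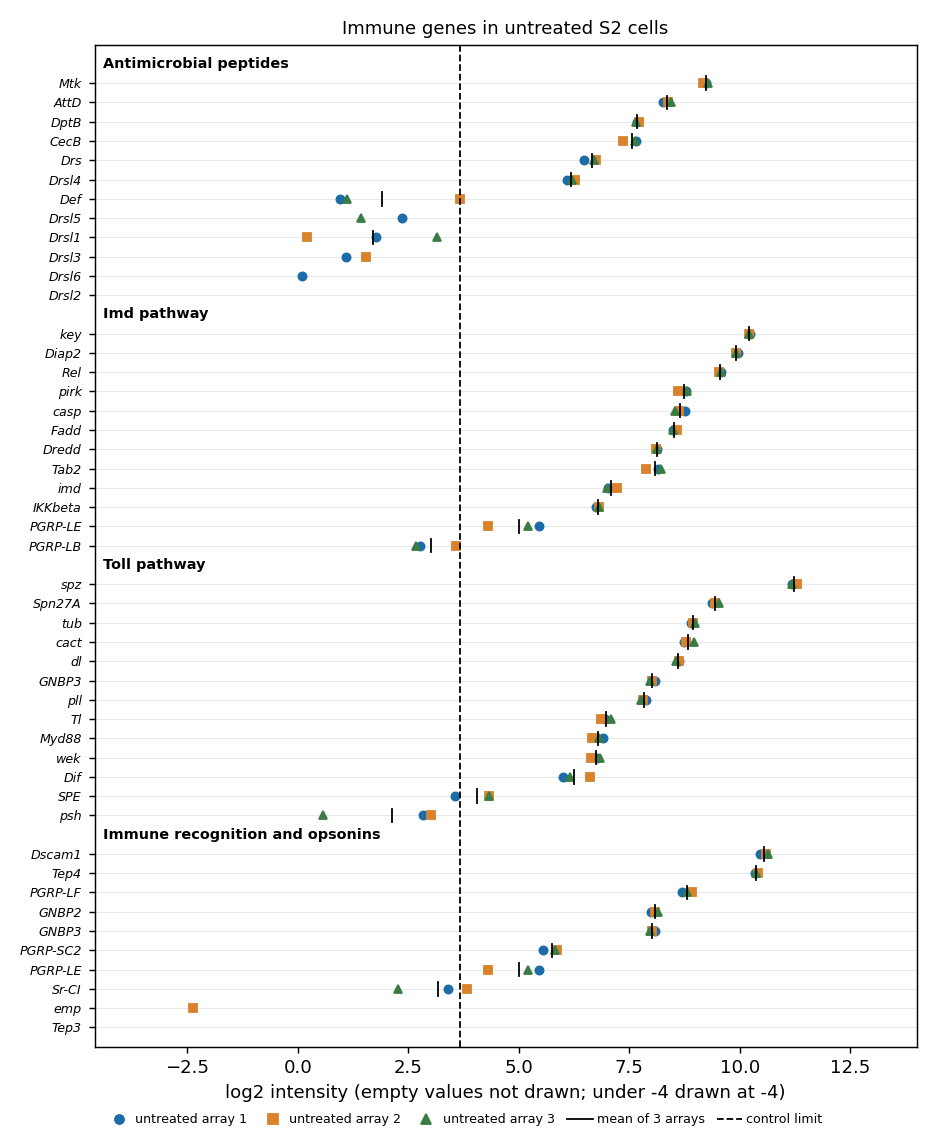
Log2 intensity of immune genes on each of the 3 untreated arrays (points), with the mean (bar) and the control limit of 3.67 (dashed). Antimicrobial peptides divide into 6 genes at 6.09 or higher and 6 under the limit, while 11 of 12 Imd genes and 11 of 13 Toll genes lie to the right of it on all arrays.

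Several core machines of a dividing cell were above the limit in every member measured, against 51.8% of all named genes. All 69 mitochondrial ribosomal proteins measured were above, as were all 26 proteasome subunits, 23 DNA replication genes and 20 mitosis genes. Their means bottomed out at 7.83 for the mitochondrial ribosome (mRpL50), 9.06 for the proteasome (Rpn1), 6.66 for replication (Cdc6) and 5.83 for mitosis (Mps1). The proteasome list leaves out 13 duplicates of its subunits, of which 1 was above and 11 were below. Of the symbols listed, 6 of 29 for replication and 8 of 28 for mitosis were not analysed here. Those for mitosis include CycA, Cdk1, stg and polo. The replication clamp PCNA read 11.66, 11.67 and 11.58, the checkpoint protein gene Bub3 10.38, 10.31 and 10.40, and the mitotic cyclin CycB 10.08, 10.00 and 9.77. Of 19 chaperone genes, 17 were above (89.5%, against 51.8% of all named genes), and all CCT chaperonin subunits listed had means over 10. The small heat shock genes Hsp27 and Hsp26 averaged 9.35 ± 0.24 and 8.31 ± 0.28 (SD, n = 3), and the inducible gene Hsp68 averaged 6.62 ± 0.25 (SD, n = 3). All 3 of these heat shock genes were highest on array 1. Cytoskeleton genes were above in 14 of 19 cases (73.7%, against 51.8% of all named genes). The membrane linker Moe read 12.70, 12.74 and 12.71, the tubulin betaTub56D 12.43, 12.40 and 12.39, and the tubulin alphaTub85E had no value. Of 3 histone genes, the variant His2Av averaged 11.53 and the centromeric cid 6.51, and BigH1, an embryonic linker histone, was above on 1 array.

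Within families, paralogs lay on different sides of the limit. Of 36 cytosolic ribosomal protein genes, 32 were above, 30 of them in the brightest 5%. The 6 outside it were duplicates: RpS19b (8.76) and RpS10a (6.45) were above, RpS5b was above on 2 arrays (4.56, 1.21 and 4.73), and RpS28a, RpL37-2 and RpL10Aa were below. RpL37-2 read 3.33, 2.17 and 3.26, whereas RpL37-1 read 12.94, 12.88 and 12.81. Among 63 respiratory chain and ATP synthase genes 49 were above (77.8%), and the genes under the limit were mostly copies named with a final L, such as COX7AL at 0.42, against COX7A at 11.72. In glycolysis, 10 of 11 genes were above, led by enolase (Eno 11.38, 11.38 and 11.39), and Hex-C, 1 of the hexokinases, had no value on any array, against 8.34, 8.62 and 8.38 for Hex-A. The translation factor eEF1alpha2 was the single exception among 32, above on 1 array with 3.88.

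Genes of the machinery that the study targeted ranged from bright to near the limit in these cells. Of 19 pausing and elongation factors, 18 were above. The negative elongation factor NELF holds RNA polymerase II near promoters. Its subunit gene NELF-B read 7.41, 7.17 and 7.16, Nelf-E read 7.83, 7.93 and 7.85, and TH1, the NELF-D subunit, averaged 8.04 ± 0.04 (SD, n = 3). All 3 subunits lay within the middle 50% of the genes above the limit. Spt5, a subunit of the pausing and elongation factor DSIF, averaged 8.10, and Cdk9, the kinase that releases paused polymerase, averaged 8.20. lilli, a super elongation complex scaffold, straddled the limit with 4.09, 3.63 and 3.19. Nelf-A was not analysed here.

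Genes for RNA interference, through which dsRNA acts in this line, were above in 13 of 14 cases (92.9%, against 51.8% of all named genes). The listed genes AGO2, AGO1 and Dcr-1 were not analysed here. Dcr-2, which cuts dsRNA, read 8.21, 8.05 and 8.39, and its partner r2d2 read 8.19, 7.79 and 7.89. The list also holds genes of the germline piRNA pathway, and these did not behave alike. aub read 8.98, 8.90 and 8.91, armi 8.53, 8.43 and 8.50, AGO3 8.09, 7.73 and 7.77, and spn-E 6.52, 6.62 and 6.40. piwi, by contrast, read 3.48 and 3.97 on arrays 2 and 3 with no value on array 1.

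Of 13 genes of sex determination and dosage compensation, 11 were above (84.6%, against 51.8% of all named genes). Genes of both male and female programmes were among them: msl-2, the limiting subunit of the male dosage compensation complex, read 6.93, 7.05 and 7.23, and Sxl, the female switch gene, read 7.44, 7.61 and 7.81, with its other probe sets at 7.33 and 2.20. Both genes are known to be transcribed in both sexes, with the sex difference made by splicing and translation, which these probe sets were not read for. dsx, the last switch of the cascade, was below with 3.22, 2.88 and 2.36.

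Of 23 genes for signalling receptors and ligands, 14 were above (60.9%, against 51.8% of all named genes) and 9 below, with none between. After Pvr, the brightest were the activin and BMP receptor put (9.68, 9.61 and 9.73) and the TNF receptor wgn (9.59, 9.47 and 9.67). The other TNF receptor, grnd, read 0.98, 1.71 and 1.59. Smoothened (smo), the BMP receptors sax and tkv, the insulin receptor InR and the ecdysone receptor pair EcR and usp were above, with EcR at 5.66, 6.30 and 6.37. Receptors for EGF and FGF signals were not: Egfr read 3.33 and 2.29 on arrays 2 and 3, htl 2.18 on array 2, and btl had no value. The ligand Delta, also on this list, averaged 2.72.

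Adhesion genes were above in 16 of 22 cases (72.7%, against 51.8% of all named genes). Cytoplasmic partners of cadherin were bright while the cadherin was not: alpha-Cat read 9.70, 9.66 and 9.77 and p120ctn 10.25, 10.18 and 10.22, whereas shg was below on both arrays that measured it. Integrin subunits likewise differed. mys was bright, mew (7.07, and 3.73 on its other probe set) and scb (4.38) were above, and if was below, with -1.45 and 0.88 on arrays 1 and 3. Of 16 ecdysone genes 10 were above (62.5%, against 51.8% of all named genes). The brightest was ImpL2, a secreted insulin-binding protein, with 11.89, 11.93 and 12.03. The early gene br averaged 6.67 on 1 of 5 probe sets, the others averaging from 3.88 down to 2.56, and Hr3, ImpE1, ImpE2, ImpL1 and Hr4 were below.

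Markers of other differentiated tissues were mostly at control level. Over 10 such lists, 28 of 371 different genes (7.55%) were above, 57 were above on 1 or 2 arrays and 286 (77.1%) were below, against 51.8%, 9.02% and 39.2% of all named genes. Chemoreceptors (156 genes) and cuticle, chorion and glue genes (86) make up most of the 371, each with 4 above. The share above was highest in the glia (40%), fat body and yolk (36.4%) and germline (30.8%) lists. Neuron markers were above in 1 of 17 cases: elav, the neuronal RNA-binding protein, read 6.83, 6.88 and 6.49, while the synaptic gene brp and the transmitter genes ChAT, VGlut and Gad1 were below. Among 13 muscle genes, Zasp52, a protein of Z discs and adhesion sites, was the exception with 8.64, 8.79 and 8.95, and the troponin, myosin light chain and titin-like genes up, Mlc2, bt and sls were below. Glial markers gave 2 of 5 (40%, against 51.8% of all named genes). They were the receptor moody with 9.20, 9.33 and 9.37 and the glutamine synthetase gene Gs2 with a mean of 5.70. The glial master gene repo read 0.93, 3.53 and 3.78, above the limit on 1 array.

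Of 11 fat body and yolk genes, 4 were above (36.4%, against 51.8% of all named genes), all of them genes of lipid metabolism: FASN1, fatty acid synthase, read 11.73, 11.68 and 11.83, the lipase bmm averaged 8.55, the lipid droplet protein Lsd-1 7.53 and the lipin gene Lpin 5.55. Secreted fat body and yolk products were not, with Lsp2 at 4.10, 2.60 and 2.92, Yp1 at a single 1.46 and Yp3 without a value. Of 13 germline genes, aub, tej, gcl and exu were above, and vas, the germline helicase, read 4.16, 4.15 and 3.63, above on 2 arrays. nanos, osk and ovo were below.

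Chemoreceptors gave 4 of 156 above (2.56%), among them Ir76a with 8.05, 7.97 and 7.86 and Gr61a with 7.30, 7.32 and 7.29. Or67b and Or43a averaged 6.15 and 4.46. Cuticle, chorion and glue genes gave 4 of 86 (4.65%), all with means from 4.16 to 5.28, and digestive enzymes 4 of 33, the brightest being Mal-B2 at 6.47. Testis and seminal genes gave 2 of 28, Acp95EF at 6.41 and Mst84Dc at 4.08. Photoreceptor genes gave 2 of 9, trpl at 4.62 and chp at 3.88. Of 22 homeotic and patterning genes, hry, a bHLH repressor used in many tissues, was alone above the limit, with 10.94, 10.92 and 11.23. Its companions in segmentation hb, Kr, en, tll and kni were below. The genes trpl, chp and Mst84Dc stood within 1 log2 unit of the limit and move out of the class with a higher limit.

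**Figure D4:**
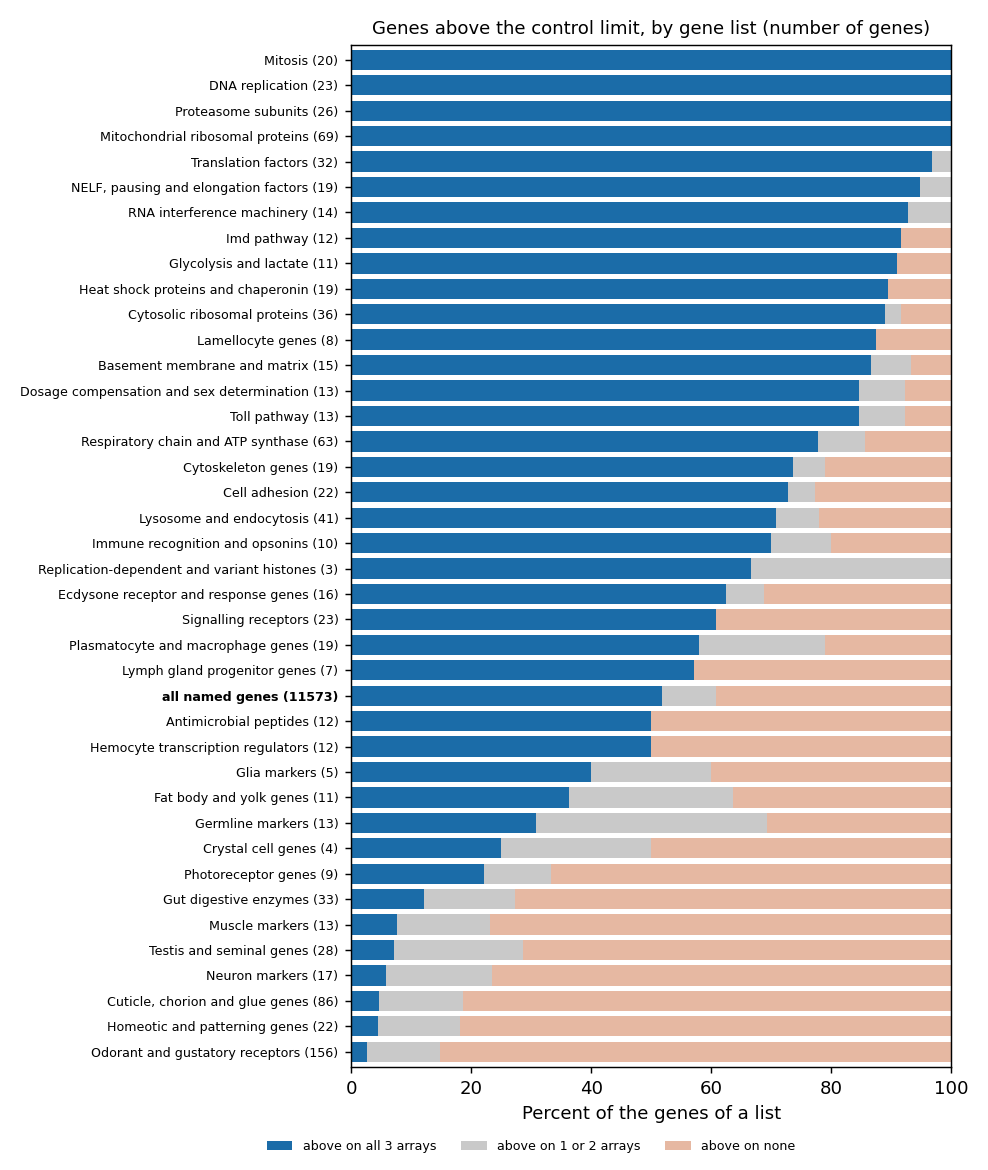
Percent of each gene list above the control limit on all 3 untreated arrays, on 1 or 2 arrays, and on none; the number of genes is in brackets and all named genes are in bold. The proteasome, mitochondrial ribosome, replication and mitosis lists are above in full, the plasmatocyte list (57.9%) stands near all named genes (51.8%), and chemoreceptors (2.56%) stand lowest of the lists drawn. The proteasome list leaves out the duplicates of its subunits.

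The 3 arrays lay close together where signal was high. Genes above the limit had a median SD of 0.10 between arrays, which is 1.07-fold. Pearson correlation coefficients were 0.988, 0.990 and 0.990 for the 3 pairs of arrays, across 5998 genes that are not independent replicates. These genes were selected as above the limit on the same 3 arrays. Over all 11480 probe sets measured on the 3 arrays, the coefficient was 0.944 for each pair. Median SDs were 0.05 in the brightest 5%, 0.07 in the rest of the upper 25%, 0.09 in the middle 50%, 0.20 in the lower 25%, and 0.82 for genes below the limit. In that last class the order of genes carries little, since 2 arrays differed by a median of 0.90 to 0.91. The genes with mean above the limit and the largest SD were all above it on 1 or 2 arrays only: Oat, ornithine aminotransferase, read 6.59, 3.66 and 6.08, and the cuticle gene TwdlH read 3.67, 6.04 and 6.51. Of the 143 genes above the limit with an SD over 0.5, the farthest array was array 2 in 59, array 1 in 45 and array 3 in 39.

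**Figure D5:**
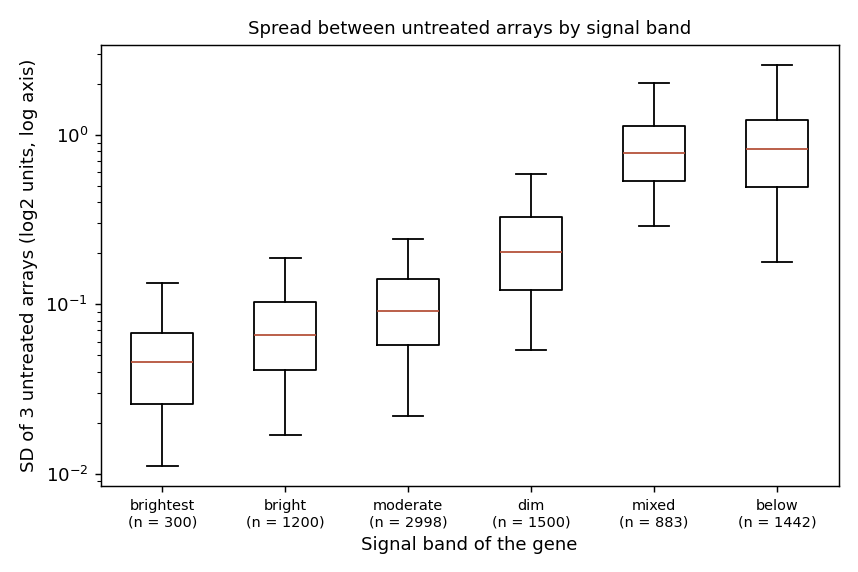
SD of the log2 intensity over the 3 untreated arrays (log axis) for genes measured on all 3, by signal band: brightest (upper 5% of genes above the limit), bright (rest of the upper 25%), moderate (middle 50%), dim (lower 25%), mixed (above on 1 or 2 arrays) and below. Boxes span the quartiles with the median as a line, and whiskers run from the 5th to the 95th percentile; the median SD is 0.05 in the brightest band and 0.20 in the dim band.

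How far a level depends on the probes can be read from genes with several probe sets. In 538 such genes measured on all arrays, the brightest set exceeded the dimmest by a median of 2.06 log2 units, or 4.18-fold, with the middle 50% from 0.88 to 4.01. In 110 of them (20.4%) 1 set was above the limit on all arrays and another on none. Where all sets of a gene were above, in 247 genes, the median difference was 1.41 log2 units. Probe sets of mys differed little, with means of 11.37 and 11.21, while those of Tl lay on both sides of the limit. Pxn, Mmp2 and Dscam1 also had sets on both sides. Their dimmer sets lacked values on some arrays, and such sets were left out of these counts. The value given here is that of the gene's probe set measured on most arrays and, among such sets, the brightest. A gene placed below was below on that set, which may have empty values.

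The 10 genes nearest the median of 8.0, leaving out those known by a CG number alone, were PCID2, Blos2, Ugt317A1, LPCAT, ZIPIC, Naus, MED7, lok, Ype and beta4GalNAcTB. Among them were MED7, a Mediator subunit (7.97, 8.06 and 7.96), lok, the checkpoint kinase Chk2 (8.12, 7.93 and 7.94), and LPCAT, a lysophospholipid acyltransferase (8.10, 7.76 and 8.13). At the limit, the 5 genes just above by mean (CG5381, CG18536, CG13743, inaE and CheA75a) ran from 3.67 to 3.69, and the 5 just below (CG34269, Cht4, CG31050, CG1441 and CG15480) were all at 3.67. Each of these 10 genes was above on some arrays and not on others, so their side of the limit is not settled by 3 arrays. The share of genes known by a CG number alone climbed down the range, at 11.7% of the brightest 300, 32.7% of the middle band, 42.9% of the dim band and 54.2% of genes below.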

How the data were processed

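RNA levels were measured on Affymetrix Drosophila Genome 2.0 arrays, of which the 3 untreated ones were used. The deposited values are log2 intensities per probe set, as the authors processed them. Arrays were scanned with GeneChip Operating Software 1.2.0.037 and imported into Rosetta Resolver 6.0, per the labels' protocols, while how probes were summarized and arrays normalized is not given in the sources used here. Base 2 was taken from the scale of the values. Replicate numbers come from the titles.

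Of 17899 probe sets other than controls, 13086 named 1 gene, 389 several and 4424 none here. Symbols were updated through 12988 matched identifiers in a RefSeq gene table (Release 6 assembly). Of 53697 values, 20.9% were empty and stayed so. Arrays measured 14144 to 14178 probe sets, and medians over the 11480 sets measured on all 3 were 6.44 to 6.46, so nothing was rescaled. The number of arrays limits the precision.

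Means and SDs were computed with pandas 2.3.3 in Python 3.11.15. The probe set measured on most arrays, then with the highest mean, stands for a gene. No test was run, since there is 1 group. Counting was tested on simulated data that held no empty values and no genes near the limit, so those cases were not tested.

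Members and gene lists were chosen with earlier results of these data known. Of 606 symbols written into the 39 lists, 130 had no probe set of a single gene here and were not analysed here; other members came from name patterns. Genes for the text were drawn, among those measured on all arrays, from the 20 brightest, the 20 brightest outside ribosome, translation factor and cytoskeleton genes, 5 on each side of the limit, 10 by SD, 10 near the median, and from each list all members or the 5 brightest and 3 dimmest. Not all of these are printed; the hemocyte lists are given in full. Further genes, mostly a list's exceptions, were named after their values were seen. Promoter motifs, planned, were not analysed here.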

Additional observations from a re-analysis of the deposited data

How the results depend on the processing

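No paired analysis was possible because no result comes from a test between groups. The count of 5998 genes above the limit ran from 5351 to 6311 under the alternatives tried other than the 99th percentile, and from 6108 to 6168 when leaving out 1 array. With the 99th percentile of the controls, 13.43, which 1 bright control probe set fixes, 3 genes were above and 11567 on no array. Of the lists, cytosolic ribosomal proteins then kept 2 genes, cytoskeleton genes 1 and every other list 0. Further limits were therefore added after seeing the data. At the highest other control value, 5.43, 89.2% of the genes stayed above, with 0 crystal cell genes, 2 progenitor genes, 1 digestive enzyme, 1 testis gene, 0 photoreceptor genes and 0 cuticle genes. Without the bright set the limit was 3.44, with 7 cuticle genes and 3 patterning genes. At the 90th percentile, 3.32, there were 2 neuron markers, 7 chemoreceptors, 7 cuticle genes and 3 patterning genes. Judged by the mean of the measured arrays there were 2 neuron markers, 8 digestive enzymes, 8 germline genes, 8 chemoreceptors, 8 cuticle genes and 3 patterning genes. Quantile normalization left 1 testis gene. Leaving out 1 array gave 1 to 2 neuron markers (2 without array 2), 1 to 2 muscle markers (2 without array 3), 2 to 4 testis genes (4 without array 1), 5 to 7 chemoreceptors (7 without array 1), 5 to 7 cuticle genes (7 without array 2) and 1 to 2 patterning genes (2 without array 2). Which of these limits separates signal from background best was not tested. Hemocyte lists other than the crystal cell and progenitor lists, and the matrix and immune lists, stayed within 1.5 times their counts under every alternative but the 99th percentile. Of 345 named genes, 27 moved by over 1 SD with the median over probe sets, and 0 with quantile normalization. A gene with a single probe set, as most of them have, cannot move with the median over probe sets. The 27 are therefore no measure of stability over all 345. Leaving out 1 array also moved 0 of the 345 named genes, but this was fixed in advance. Dropping 1 of 3 values cannot shift their mean by 1 SD, so that setting says nothing of how stable the levels are. Leaving out controls named for Drosophila genes was not run, since the control names give sequence codes that were not matched to genes here, and the motif windows were not run.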

Other observations

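The families below were chosen after their values had been seen and support no pattern given earlier. All 54 subunits of Mediator, Integrator and the RNA polymerases were above the control limit in untreated cells, as were 20 nucleoporins, 27 Vps genes of endosomal sorting and 17 Sec genes of the secretory pathway. Of 20 autophagy genes 17 were above, led by Atg8a, the ubiquitin-like protein of autophagosomes, with 11.47, 11.40 and 11.34. The 13 duplicates of proteasome subunits, many known from the testis, were above in 1 case, Rpt3R with 7.33, 7.38 and 7.38, and below in 11.

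Among detoxification families, glutathione S-transferases were above in 21 of 33 cases (63.6%, against 51.8% of all named genes), with GstE6 at 11.64, 11.76 and 11.71 and GstD1 at 11.08, 11.19 and 11.08. Cytochromes P450 were above in 24 of 77 cases (31.2%, against 51.8% of all named genes), with Cyp6a20 at 9.89, 9.78 and 9.92, and UDP-glycosyltransferases in 6 of 32. Families tied to sense organs and epidermis were near control level, with 1 of 41 odorant-binding proteins (Obp19d, mean 5.37), 2 of 24 pickpocket channels, 1 of 18 Dpr surface proteins and 1 of 19 Osiris genes above.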
